A study of Mus musculus with 17 samples.

Results

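The 40 interferon-stimulated genes described here are the rows of the deposited table whose gene name is on a list of antiviral sensors, transcription factors, effectors and GTPases, 40 of 21931 genes in all. They were measured by bulk RNA-seq in subcutaneous tumors of MC38, a mouse colon cancer line, that were not themselves frozen. C57BL/6J mice aged 6-8 weeks received MC38 cells under the skin of both sides. In the cryoablation group (n = 8), 1 of the tumors was frozen on day 7, when tumors measured about 5-6 mm across, and the one on the other side was taken 5 days later. The control group (n = 9) carried tumors on both sides without cryoablation. The study's text gives the group sizes the other way round, and the labels were followed, so every direction given here rests on them. The labels give 2 freezing cycles of 20 s, and the study's methods give a longer cycle. The host mice were immunocompetent, so each sample held cancer cells, immune cells and stroma, and fewer cells of a type cannot be told apart from less RNA per cell. Nothing in the labels says whether tumors of the same group shared a cage, litter or day.

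Interferons are secreted proteins that act on receptors at the cell surface. Type I interferons such as interferon beta signal through IFNAR1 and IFNAR2 to a complex containing STAT2 and IRF9 that binds the interferon-stimulated response element (ISRE), whereas interferon gamma acts on its targets through gamma-activated sequences (GAS). The genes switched on in this way include sensors of foreign nucleic acid, enzymes that degrade or alter viral RNA, and GTPases that attack the vacuoles of intracellular parasites. In tumors, both cancer cells and infiltrating immune cells can express them.

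All 40 genes passed the filter on low counts, and the lowest count of any of them in any tumor was 56. Total counts ranged from 14154687 to 17898672 in the control group and from 13524899 to 16847050 in the cryoablation group. Levels are given as CPM, read counts scaled to a common library total after TMM normalization, and levels of different genes are compared per kilobase of the listed gene length. On that scale, the highest mean levels over the 17 tumors belonged to Gbp2, a guanylate-binding GTPase, with 312 CPM per kilobase, and Bst2, which encodes the virus-tethering protein tetherin, with 283. Igtp, an immunity-related GTPase, had 144 CPM per kilobase and the ubiquitin-like modifier Isg15 had 81.0. The lowest mean level was that of Mx2, with 2.27 CPM per kilobase.

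Promoter sequences were available for 30 of the 40 genes, in RefSeq windows of GRCm38.p6 that span 250 bases before to 50 after the annotated start. The 250 bases upstream held at least 1 match to the ISRE, searched as GAAA followed by any 2 bases and a second GAAA on either strand with overlapping matches allowed, for 15 of the 30 genes, whereas 3.46% of 27025 genes had one. All 6 GTPase genes with a sequence (Gbp2, Gbp3, Gbp5, Gbp7, Igtp and Irgm1) had an ISRE match, and 0 of the 3 sensor genes did. Matches to the GAS, searched as TTC and GAA with any 3 bases between them, were found upstream of 7 of the 30 genes (23.3%) and of 8.13% of all genes. These matches are a description of the letters in the windows. The stretches below show the ISRE matches of 6 genes whose tumor levels are given later, in each role the gene with a match and the highest level. Capitals mark the ISRE matches, and a match that reads TTTC at both ends lies on the opposite strand. Each stretch is printed 5′ to 3′ on the strand of its gene.
Stat2 (chr10:128270248-128270325, + strand): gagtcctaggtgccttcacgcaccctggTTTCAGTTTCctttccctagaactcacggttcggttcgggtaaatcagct
Oas1a (chr5:120907526-120907585, - strand): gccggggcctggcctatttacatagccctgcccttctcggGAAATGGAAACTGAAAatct
Ifit3 (chr19:34583333-34583456, + strand): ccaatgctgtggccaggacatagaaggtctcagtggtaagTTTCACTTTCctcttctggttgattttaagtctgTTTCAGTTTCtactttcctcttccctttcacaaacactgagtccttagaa
Bst2 (chr8:71537547-71537642, - strand): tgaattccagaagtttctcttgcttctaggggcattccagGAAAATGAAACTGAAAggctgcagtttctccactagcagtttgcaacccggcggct
Isg15 (chr4:156200835-156200936, - strand): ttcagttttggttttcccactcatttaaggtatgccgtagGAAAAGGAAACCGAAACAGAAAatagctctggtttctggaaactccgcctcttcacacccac
Gbp2 (chr3:142620564-142620653, + strand): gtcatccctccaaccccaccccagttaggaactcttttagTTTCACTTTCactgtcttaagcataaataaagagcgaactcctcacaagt
In Oas1a, Bst2 and Isg15 the matches overlapped each other, and in Ifit3 2 separate matches began 122 and 156 bases upstream of the start. The nearest match of Oas1a lay 14 bases upstream and that of Stat2 222 bases upstream. No upstream ISRE match was found for Ifi35 or Xaf1.

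Most of the 40 genes were higher or lower together from tumor to tumor, within both groups. Control replicate 2 had the highest level of all 17 tumors for 35 of the 40 genes and control replicate 1 the lowest for 24. The mean over the 40 genes of the log2 deviation from each gene's mean was 1.16 in control replicate 2, 0.67 in control replicate 3 and -0.99 in control replicate 1. In the cryoablation group it was 0.53 in replicate 3 and 0.54 in replicate 6, and between -0.61 and -0.04 in the others. Summed over the 40 genes, the level ranged from 1910 CPM in control replicate 1 to 7858 CPM in control replicate 2. Of the 40 genes, the number above its own mean was 40 in control replicate 2, 39 in control replicate 3 and in cryoablation replicate 3, 37 in cryoablation replicate 6, and 0 in control replicate 1 and in cryoablation replicate 1.

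**Figure D1:**
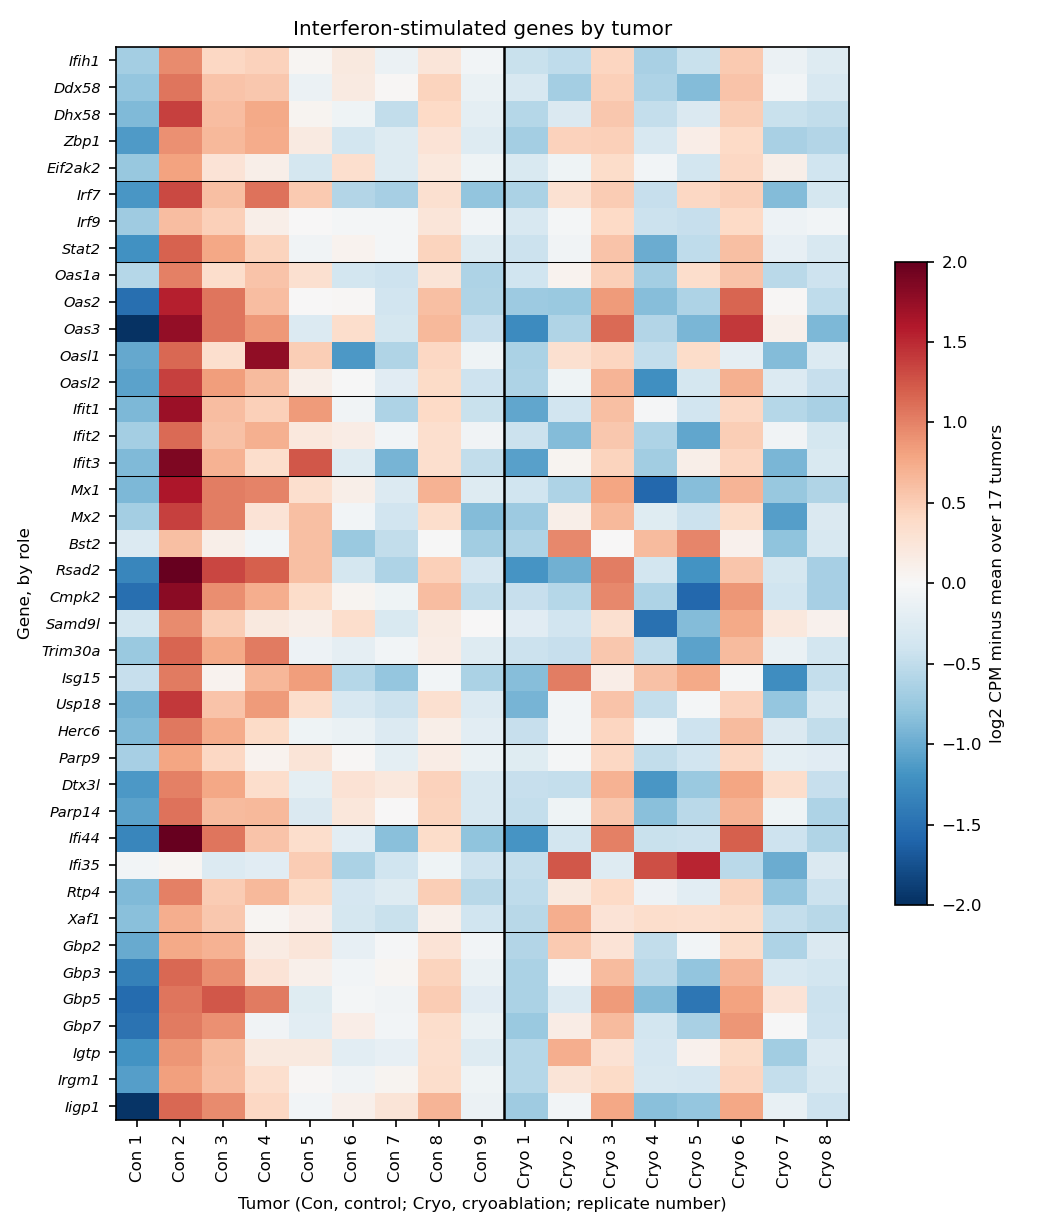
Each row is 1 of the 40 genes, ordered by role with lines between roles, each column is a tumor, and the color is the log2 CPM minus the gene's mean over 17 tumors, with the color scale ending at 2 above and below. Control replicate 2 is above the mean for 40 of 40 genes and control replicate 1 for 0, and cryoablation replicates 3 and 6 stand out from the other cryoablation tumors.

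The spread between tumors of the same group was wide for these genes. The SD of log2 CPM within groups had a median of 0.633 over the 40 genes and of 0.353 over all 13005 genes tested. It lay above the 90th percentile of genes tested for 12 of the 40 genes (30.0%), where 10.0% of all genes lie by definition. The widest spread was that of Oas3, a synthetase of the 2-5A messenger that activates RNase L, with an SD of 1.05, and the narrowest was that of Irf9, the DNA-binding part of the complex with STAT2, with 0.358. The highest control tumor exceeded the lowest by 4.47-fold in the median over the 40 genes, from 2.22-fold for Ifi35 to 13.6-fold for Oas3, beside a median of 1.77-fold over all genes. In the cryoablation group this ratio had a median of 2.94, from 1.77 for Eif2ak2 to 6.41 for Oas3, beside 2.25 over all genes.

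**Figure D2:**
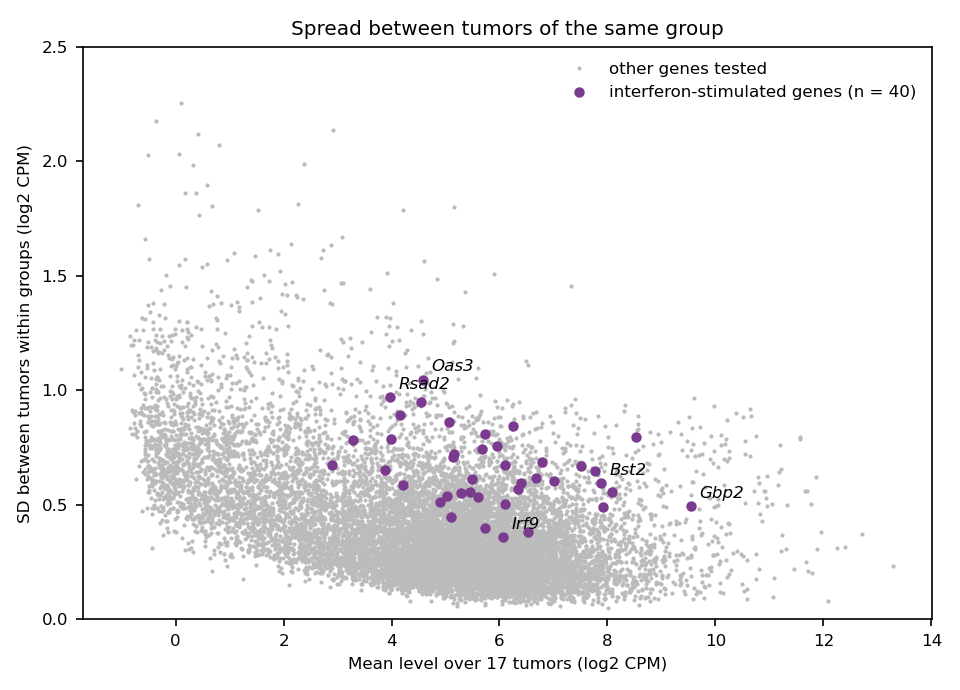
The SD of log2 CPM between tumors within groups (vertical axis) is plotted against the mean log2 CPM over 17 tumors (horizontal axis) for the 40 genes (purple) and the other genes tested (gray), with 4 genes above the axis limit of 2.5 not shown. The purple points run from 0.358 for Irf9 to 1.05 for Oas3, above the median of all genes of 0.353.

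The comparison of the groups asks whether freezing 1 tumor was followed by a different interferon-stimulated program in the tumor left in place. In edgeR's quasi-likelihood test, 36 of the 40 genes had a log2 fold change (cryoablation over control) below 0, where 52.0% of all genes tested did. Most of the 40 genes varied together between tumors, so the 36 are not independent results. The median was -0.36 over the 40 genes, a 0.781-fold level, and -0.01 over all genes. The values ranged from -0.88 for Rsad2 to 0.63 for Ifi35. None passed the test after adjustment, with 0 of the 40 genes at an adjusted p under 0.05 (0.0% of all genes), and their adjusted p values lay between 0.728 and 0.999.

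At an unadjusted p under 0.05, 2 of the 40 genes (5.0%) passed, beside 4.91% of all genes tested. Both were lower in the cryoablation group, where 1.17% of all genes were lower and 3.74% higher at that threshold. DESeq2 gave 3 such genes of the 40, beside 881 of all 13005. Limma's voom with sample quality weights gave 4 of the 40, beside 1312 of 13005. Both gave 0 of the 40 after adjustment. With the study's additional requirement of a change beyond 1 on the log2 scale in either direction, 0 of 40 passed (0.492% of all genes). The exact permutation test of single genes gave 0 of 40 with an unadjusted p under 0.05 (2.97% of all genes) and a smallest adjusted p of 0.741. The groups overlapped for all 40 genes (0.0% of all genes did not overlap).

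The size of change that these data leave possible differed by direction. The 95% interval of the log2 fold change lay within 1 of 0 on both sides for 22 of the 40 genes (55.0%), beside 85.0% of all genes. Its upper bound lay under 1, a 2-fold increase, for 39 of the 40 (97.5%, beside 91.6% of all genes), with Ifi35 as the exception. Its upper bound lay under a 1.5-fold increase for 36 of the 40, beside 76.2% of all genes. At least 6 of the 8 cryoablation tumors were below the control median for 25 of the 40 genes (62.5%), where this held for 17% of all genes. Cryoablation replicates 3 and 6 were the exceptions in most cases, since they were above the control median for 39 and 38 of the 40 genes. Because the genes varied together, these counts largely repeat the same tumors and are not independent evidence of a direction.

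**Figure D3:**
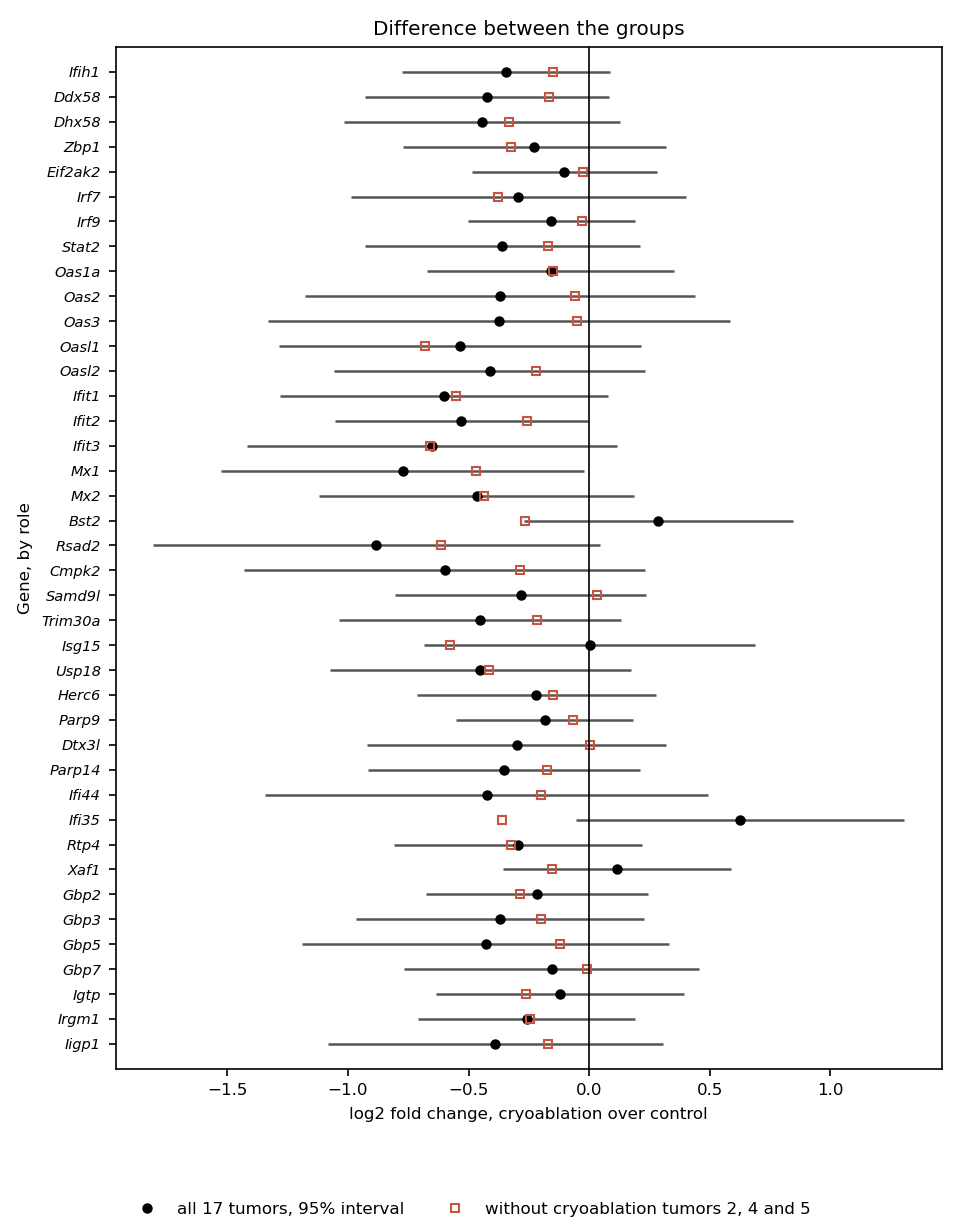
The horizontal axis is the log2 fold change of cryoablation over control for each of the 40 genes, ordered by role. Black points with 95% intervals are from all 17 tumors and run from -0.88 for Rsad2 to 0.63 for Ifi35, and open squares are without cryoablation tumors 2, 4 and 5, where Ifi35 moves to -0.36.

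Among the 5 sensors, all had a value below 0 and 0 passed at an unadjusted p under 0.05. Ddx58, which encodes the RNA helicase RIG-I, had a lowest, median and highest level of 28.2, 55.3 and 102 CPM in the control group and of 26.5, 39.0 and 72.4 CPM in the cryoablation group. The ranges overlapped over most of their length, with control replicate 2 highest and cryoablation replicate 5 lowest. The log2 fold change of Ddx58 was -0.42 (SE 0.24, edgeR p = 0.0959, exact permutation p = 0.118). Ifih1, which encodes the long-RNA sensor MDA5, ranged from 21.5 through 39.4 to 66.5 CPM and from 21.9 through 27.0 to 49.4 CPM, with the lowest tumors of the groups nearly level (log2 fold change -0.34, SE 0.21). Dhx58, which encodes LGP2, a regulator of both, ranged from 9.86 through 19.0 to 47.3 CPM and from 12.3 through 14.1 to 26.5 CPM (log2 fold change -0.44, SE 0.27). In both groups 1 or 2 high tumors stood above the rest for these helicases, control replicate 2 and cryoablation replicates 3 and 6. Zbp1, a sensor of Z-form nucleic acid and the sensor with the highest level per kilobase, ranged from 38.3 through 95.6 to 159 CPM and from 52.1 through 79.6 to 116 CPM, and its log2 fold change was -0.23 (SE 0.26). Eif2ak2, the RNA-activated kinase PKR, had the smallest difference of the sensors at -0.10.

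All 3 transcription factors had values below 0, from -0.36 for Stat2 to -0.16 for Irf9. Stat2 ranged from 44.4 through 108 to 232 CPM in the control group and from 51.2 through 86.5 to 155 CPM in the cryoablation group. The lowest of all was a control tumor, replicate 1, and the cryoablation tumors above the control median were replicates 3 and 6. Between the groups, Stat2 differed by -0.36 on the log2 scale (SE 0.27, edgeR p = 0.202, exact permutation p = 0.306). Irf7, which amplifies type I interferon expression, had a log2 fold change of -0.29. Its locus overlaps Phrf1 on the other strand, and Irf9 overlaps Rnf31, so reads of the overlaps cannot be assigned with certainty.

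The 5 OAS family genes, whose products make 2-5A in response to double-stranded RNA or are related to those that do, had a median of -0.37. Oasl1, which represses translation of Irf7, had a lowest, median and highest level of 4.30, 12.2 and 33.4 CPM in the control group and of 5.24, 8.24 and 13.1 CPM in the cryoablation group. Here the highest tumor was control replicate 4 rather than control replicate 2. The difference was -0.54 on the log2 scale (SE 0.36, edgeR p = 0.152, exact permutation p = 0.432), and it was -0.23 without control replicate 4. Oasl2, the OAS family gene with the highest level per kilobase, ranged from 52.5 through 120 to 285 CPM and from 47.3 through 89.3 to 181 CPM (log2 fold change -0.41, SE 0.31). Oas1a ranged from 21.3 through 39.0 to 65.7 CPM in the control group and from 20.3 through 29.5 to 48.6 CPM in the cryoablation group, so that the ranges overlapped over most of their length (log2 fold change -0.16, SE 0.24). Without control replicate 2 its value was -0.02. Oas2 and Oas3 both had -0.37, with -0.14 and -0.11 without control replicate 2 and -0.65 and -0.71 without cryoablation replicate 6.

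The IFIT family, which binds RNA with foreign 5′ ends, was the role with the lowest median, -0.60 over 3 genes. Ifit2 ranged from 24.2 through 44.6 to 85.4 CPM in the control group and from 18.8 through 29.5 to 56.1 CPM in the cryoablation group. The groups overlapped, and 6 of the 8 cryoablation tumors were below the control median, with replicates 3 and 6 above it. Its log2 fold change was -0.53 (SE 0.25, 95% interval -1.05 to -0.0049), with an edgeR p of 0.0481, an adjusted p of 0.728 and an exact permutation p of 0.0585. Ifit3 ranged from 28.0 through 67.6 to 195 CPM and from 25.2 through 49.1 to 72.3 CPM, with control replicates 2, 3 and 5 above every cryoablation tumor (log2 fold change -0.65, SE 0.37). Ifit1 ranged from 18.7 through 46.2 to 115 CPM and from 17 through 26.8 to 53.4 CPM (log2 fold change -0.60, SE 0.32). Without control replicate 2 the values were -0.40 for Ifit2, -0.35 for Ifit3 and -0.33 for Ifit1. The table also lists the near-identical gene Ifit3b, so reads could be split between it and Ifit3.

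The restriction factors and the radical SAM pair included both the lowest value of all and 1 of the 4 values above 0. Mx1, a gene of the dynamin-like GTPase family, had a lowest, median and highest level of 8.44, 19.9 and 48.5 CPM in the control group and of 5.23, 10.3 and 27.4 CPM in the cryoablation group. Cryoablation replicate 4 was the lowest of all tumors, and replicates 3 and 6 were the cryoablation tumors above the control median. Its log2 fold change was -0.77 (SE 0.36, 95% interval -1.52 to -0.02), with an edgeR p of 0.0442, an adjusted p of 0.728 and an exact permutation p of 0.0592. Rsad2, which encodes viperin, a radical SAM enzyme that makes a chain-terminating nucleotide, ranged from 6.27 through 21.9 to 68.3 CPM and from 6.75 through 11.0 to 31.8 CPM. The control range spanned 10.9-fold and held the whole cryoablation range. For Rsad2 the log2 fold change was -0.88 (SE 0.44, edgeR p = 0.0606, exact permutation p = 0.137), and it was -0.56 without control replicate 2 and -1.18 without cryoablation replicate 3. Its neighbor Cmpk2, a mitochondrial nucleotide kinase, had -0.60, and Trim30a, a feedback regulator of Toll-like receptor signaling, had -0.45 (SE 0.28). Trim30a ranged from 26.7 through 43.1 to 101 CPM in the control group and from 21.2 through 34.0 to 69.9 CPM in the cryoablation group, and its relative Trim30d is also in the table. Mx2 and Samd9l had -0.47 and -0.28.

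**Figure D4:**
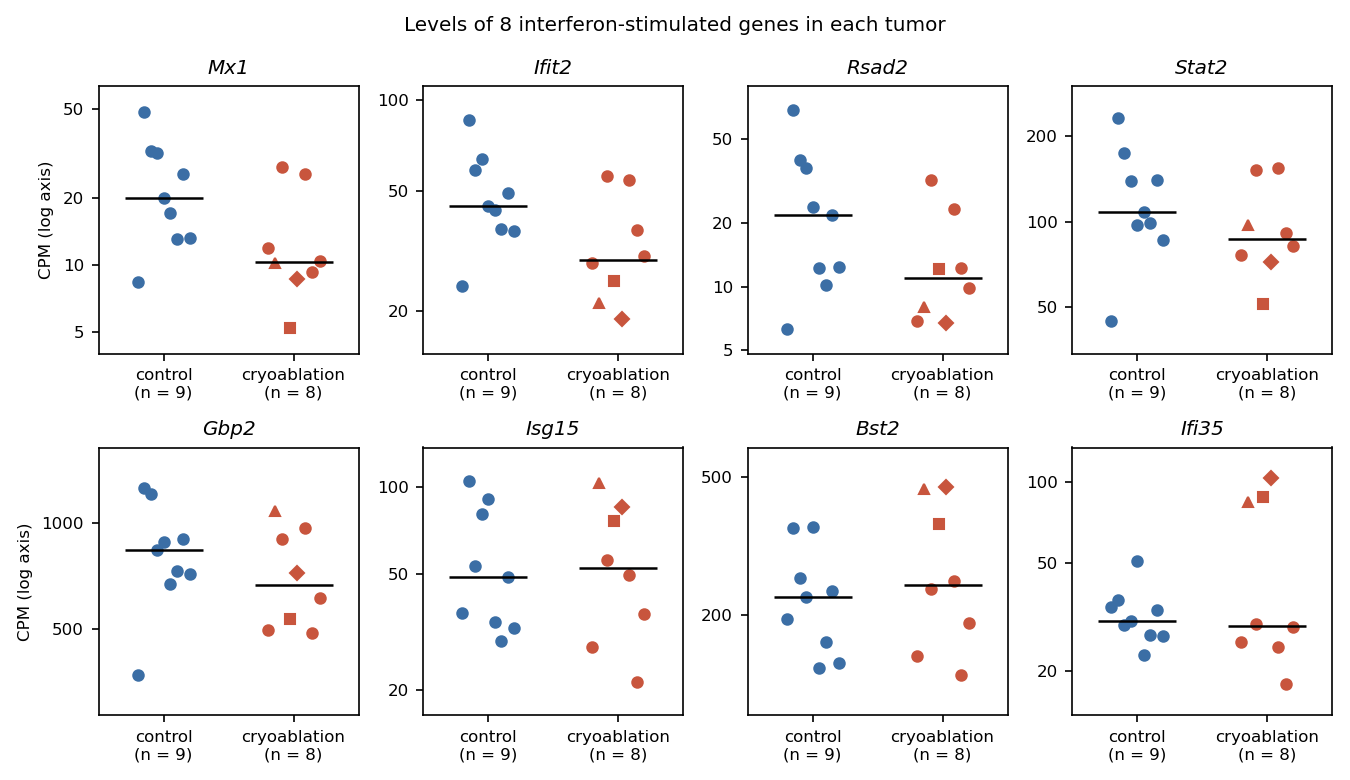
The CPM of 8 genes in each tumor is shown on a log axis, control tumors in blue and cryoablation tumors in red, with a line at the group median, and cryoablation tumors 2, 4 and 5 are the triangle, square and diamond. In Mx1 those 3 tumors are at 10.2, 5.23 and 8.68 CPM, below the control median, and in Ifi35 they are above every other tumor.

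The ISG15 system had 2 of 3 values below 0. Usp18, the protease that removes ISG15 from its targets, ranged from 7.47 through 18.2 to 39.2 CPM in the control group and from 7.59 through 12.8 to 21.6 CPM in the cryoablation group (log2 fold change -0.45, SE 0.30). Isg15 ranged from 29.5 through 49.0 to 105 CPM and from 21.3 through 52.8 to 103 CPM. Cryoablation replicates 2, 4 and 5 were the highest 3 of their group for Isg15, and the ranges of the groups nearly coincided. Its log2 fold change was 0.00 (SE 0.33, 95% interval -0.68 to 0.69). Herc6, the ligase that attaches ISG15 in mice, had -0.22.

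The ADP-ribosylation trio lay between -0.35 and -0.18. Parp14, a mono-ADP-ribosyltransferase, ranged from 61.5 through 151 to 274 CPM in the control group and from 72.2 through 107 to 209 CPM in the cryoablation group (log2 fold change -0.35, SE 0.27). Parp9, the partner of the ubiquitin ligase Dtx3l, ranged from 58.7 through 97.2 to 161 CPM and from 66.2 through 80.1 to 124 CPM (log2 fold change -0.18, SE 0.18). In both genes the cryoablation range lay inside the control range. Parp9 and Dtx3l overlap on opposite strands, and the strandedness of the counting is not given in the sources used here.

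All 7 GTPase genes had values below 0, from -0.43 for Gbp5 to -0.12 for Igtp, and 0 passed at an unadjusted p under 0.05. Gbp2 ranged from 369 through 839 to 1260 CPM in the control group and from 488 through 666 to 1078 CPM in the cryoablation group. The cryoablation range lay inside the control range, and the log2 fold change was -0.22 (SE 0.22, 95% interval -0.68 to 0.24). Gbp3, the GTPase with the smallest p, ranged from 85.4 through 233 to 484 CPM and from 126 through 171 to 348 CPM (log2 fold change -0.37, SE 0.28, edgeR p = 0.210, exact permutation p = 0.313). Control replicate 1 was the lowest tumor for all 7 GTPases. Of the other 3, Gbp7 had -0.16, Irgm1 had -0.26 and Iigp1 had -0.39. Close relatives of these genes, such as Gbp4, Gbp9, Irgm2 and Tgtp2, are also in the table, so reads shared between copies could be split.

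The 4 genes with a value above 0 were Ifi35, Bst2, Xaf1 and Isg15, and in each of them the highest cryoablation tumor was replicate 2 or 5. Ifi35, whose product modulates RIG-I signaling, ranged from 22.9 through 30.5 to 50.9 CPM in the control group and from 17.8 through 29.4 to 103 CPM in the cryoablation group. Cryoablation replicates 2, 4 and 5 had 84.0, 87.6 and 103 CPM, above every other tumor, and the other 5 lay within or below the control range. Its log2 fold change was 0.63 (SE 0.32, 95% interval -0.06 to 1.31, edgeR p = 0.0700), and the exact permutation p was 0.320. Bst2 ranged from 142 through 227 to 358 CPM and from 135 through 244 to 466 CPM, again with cryoablation replicates 2, 4 and 5 highest of all tumors (log2 fold change 0.29, SE 0.27). Xaf1, a pro-apoptotic partner of XIAP named here after its value was seen, had a log2 fold change of 0.11 (SE 0.22). Without cryoablation tumors 2, 4 and 5, all 4 genes had values below 0. The values were -0.36 for Ifi35, -0.27 for Bst2, -0.15 for Xaf1 and -0.58 for Isg15. The tumors left out were the highest of their group for Ifi35, Bst2 and Isg15, so a fall in those genes follows from the choice. It is therefore not a separate result about the groups, and shows only that the values above 0 rested on these tumors.

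Those 3 tumors stood apart in other measures too. The median log2 deviation of the 824 genes tested with a listed length of up to 1500 bases was 0.834, 0.810 and 1.01 in cryoablation replicates 2, 4 and 5, and between -0.53 and 0.37 in the other 14 tumors. Isg15 and Bst2 are the 2 of the 40 genes with such a length, 703 and 903 bases. With offsets for each tumor's trend with gene length, the values became -0.45 for Isg15 and -0.10 for Bst2, and remained above 0 for Ifi35 at 0.33 and Xaf1 at 0.18. The 5631 genes tested of over 5000 bases, among them Stat2, Oas3 and Parp14, had medians of -0.240, -0.204 and -0.349 in the same 3 tumors. In the other 14 tumors the long-gene median lay between -0.17 and 0.23. With the length offsets, 38 of the 40 genes were below 0, with a median log2 fold change of -0.32. The summed hemoglobin and heme synthesis markers were 142, 91.5 and 175 CPM in the 3 tumors and at most 74.6 CPM in the others, and the summed colon epithelium markers were 144, 143 and 216 CPM, beside at most 98.5 CPM in the others. The part of these measures in the values of the 40 genes was not tested beyond the fits given here. Over the whole set, leaving out the 3 tumors gave 38 of 40 genes below 0, a median log2 fold change of -0.22 and 0 genes at an unadjusted p under 0.05, so Mx1 at -0.47 and Ifit2 at -0.26 no longer passed. Samd9l (0.03) and Dtx3l (0.00) were then the values not below 0.

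Single tumors also moved the counts. The number of the 40 genes with an unadjusted p under 0.05 was 0 without control replicate 2, 3, 4 or 8 or without cryoablation replicate 2, 4 or 5, and it was 8 without control replicate 1 or cryoablation replicate 3 or 6. In the fits with 8, the number over all genes was 1284 of 12985, 1388 of 13040 and 1298 of 13050, beside 639 with all tumors. In the fits with 0 it lay between 252 and 382. Without cryoablation replicate 1, 7 or 8, 1 of the 40 genes passed, beside 681, 1321 and 720 of all genes. The median log2 fold change ranged from -0.50 without cryoablation replicate 6 to -0.18 without control replicate 2, and 35 to 37 genes were below 0. Under voom, all 40 were below 0, and the 4 genes at an unadjusted p under 0.05 were Ifit2, Gbp2, Irgm1 and Iigp1. No gene had an adjusted p under 0.05 in any of these fits.

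Upstream of the 40 genes, a list of 30 interferon ligands, receptors, signaling genes and regulators held 21 that were tested. Of these, 7 had values above 0 and 14 below, 0 passed at an unadjusted p under 0.05 in either direction, and the median log2 fold change was -0.08. Ifnb1, interferon beta, had too few reads to test. It had 13 reads in control replicate 2, 7 in cryoablation replicate 6, and 0 to 2 in the remaining tumors. Those are the tumors with the highest mean of the 40 genes in their groups, although cryoablation replicate 3, with 1 Ifnb1 read, had nearly the same mean. Among the 8 other ligands, 5 had 0 reads in all tumors (Ifna1, Ifna2, Ifna5, Ifnl2 and Ifnl3), which limits each to 3 reads per tumor, a floor that covers counting error only. Ifng, interferon gamma, ranged from 1.11 through 2.22 to 4.56 CPM in the control group and from 0.422 through 1.41 to 4.99 CPM in the cryoablation group (log2 fold change -0.34, SE 0.45). The 3 tumors with the most Ifng were cryoablation replicate 2 and control replicates 3 and 4.

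The differences of the type I receptor genes and Irf1 lay between -0.18 and 0.00 on the log2 scale. Ifnar1 ranged from 85.1 through 88.7 to 107 CPM in the control group and from 68.1 through 93.1 to 111 CPM in the cryoablation group, with a log2 fold change of 0.00 (95% interval -0.18 to 0.18). Ifnar2 had -0.18 (95% interval -0.46 to 0.10). Irf1, a factor induced by interferon gamma, had -0.08 (95% interval -0.42 to 0.26).

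Cell type markers are set beside these levels as a description, and no association was computed. Ptprc, which encodes the leukocyte antigen CD45, ranged from 30.0 through 86.3 to 209 CPM in the control group and from 29.6 through 58.6 to 113 CPM in the cryoablation group (log2 fold change -0.52). Control replicate 1, lowest in most of the 40 genes, had 30.0 CPM of Ptprc and 75.8 CPM of 11 summed T and NK cell markers, the lowest of the 17 tumors for that sum. Control replicate 2, highest in most of the 40 genes, had 95.9 and 168 CPM, whereas control replicate 4 had the most of both, 209 and 275 CPM. The summed T and NK cell markers ranged from 75.8 to 275 CPM in the control group and from 78.6 to 251 CPM in the cryoablation group, with 0 of 11 genes at an unadjusted p under 0.05. Cryoablation replicates 3 and 6, highest of their group in the mean of the 40 genes, had 140 and 143 CPM of this sum. Replicates 2 and 5 of that group had 251 and 211 CPM. The 10 macrophage markers ranged from 2085 to 5344 CPM and from 1371 to 7567 CPM when summed. Of the 10, 6 had log2 fold changes above 0 and 4 below, and 1 was lower at an unadjusted p under 0.05. Their sum was 3909 CPM in control replicate 1, 2663 CPM in control replicate 2 and 2329 CPM in cryoablation replicate 6. The erythroid markers were higher at an unadjusted p under 0.05 for 4 of the 4 tested, with sums of 6.16 to 74.6 CPM in the control group and of 25.1 to 175 CPM in the cryoablation group. Of the 4 neutrophil markers tested, 3 had log2 fold changes above 0. S100a8 and S100a9 were higher at an unadjusted edgeR p under 0.05, with exact permutation p of 0.0554 and 0.127. The neutrophil sums were 7.89 to 68.1 CPM in the control group and 7.04 to 55.7 CPM in the cryoablation group. Of the 12 colon epithelium markers, 6 passed the filter and Cdx2 had 0 reads in all tumors. The part of these cell types in the levels of the 40 genes was not tested.

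**Figure D5:**
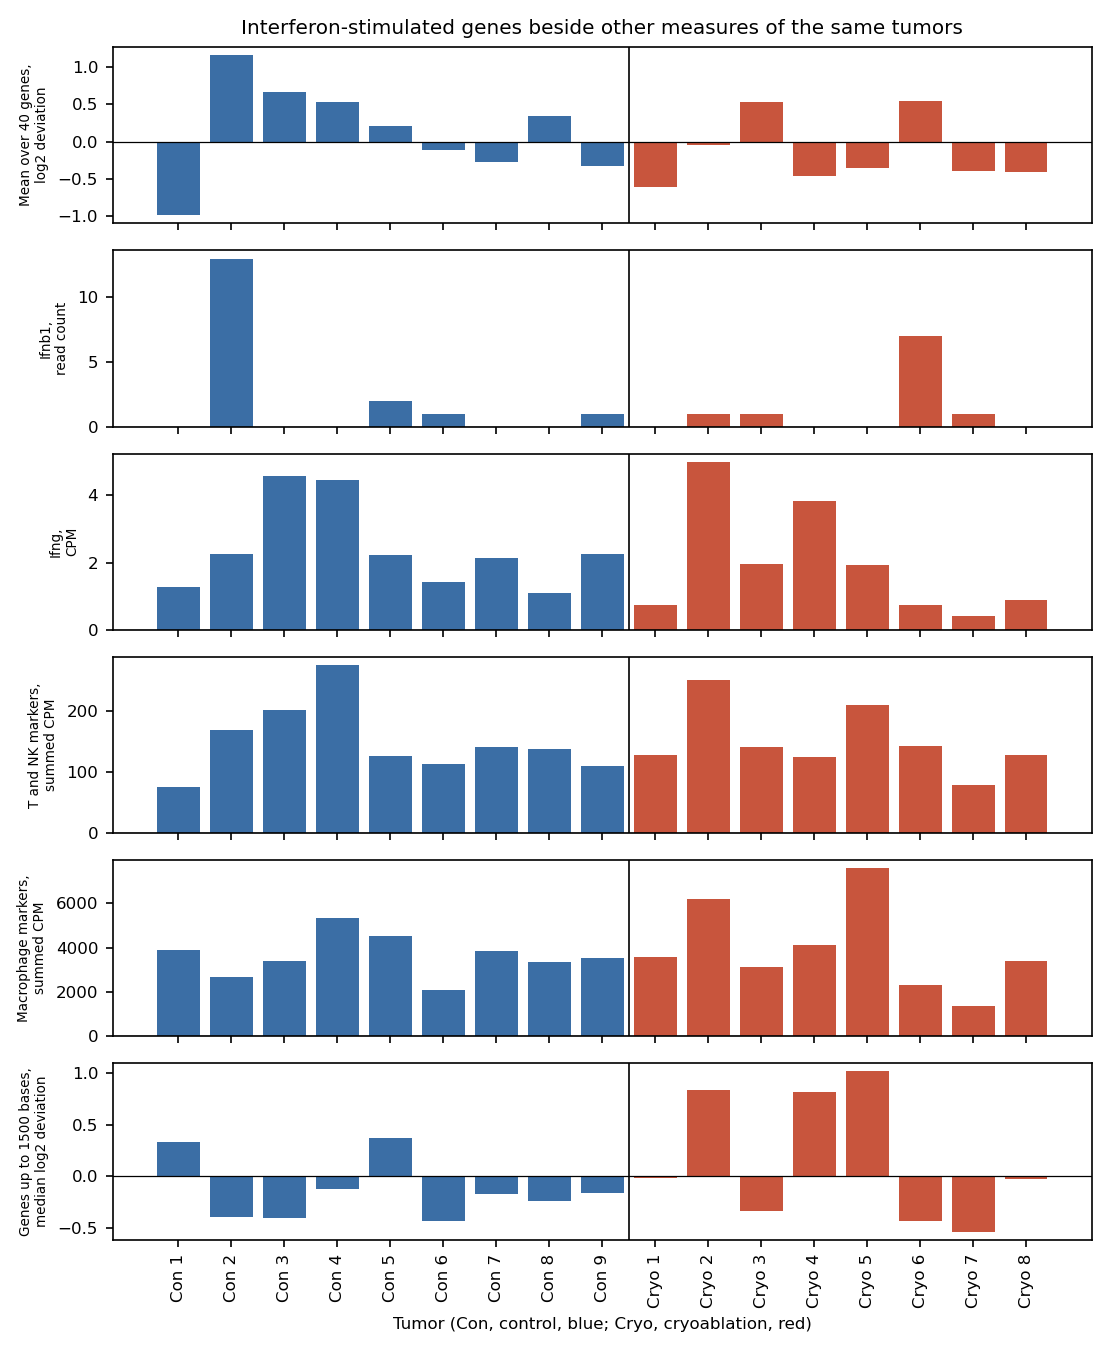
Bars give, for each tumor (control in blue, cryoablation in red), from top to bottom the mean log2 deviation of the 40 genes, the Ifnb1 read count, Ifng in CPM, summed T and NK cell and macrophage markers in CPM, and the median log2 deviation of genes of up to 1500 bases. Control replicate 2 and cryoablation replicate 6 have the most Ifnb1 reads, 13 and 7, and cryoablation replicates 2, 4 and 5 have the highest short-gene values, 0.834, 0.810 and 1.01.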

How the data were processed

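RNA sequencing data of 17 distant MC38 tumors (9 control, 8 cryoablation) were analysed, grouped by their deposited labels. The study's text gives these group sizes the other way round. Libraries from bead-captured mRNA were run on a NovaSeq instrument. The authors deposited read counts per gene, not normalized, with FPKM values computed from them. The FPKM equaled the count divided by gene length and total count within 0.001 for all 260739 values checked, and were not used further. The submitters' processing notes name GRCm38 and mm10. The aligner, the counter and the strandedness are not given in the sources used here. Positions in the table matched GENCODE M21 for few genes, so positions come from RefSeq GRCm38.p6. No pair of tumors had identical counts. The p values set the group difference against the variation between tumors and treat the tumors as independent. Nothing states that tumors came from separate batches or cages, so that independence cannot be checked.

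Counts were tested with edgeR 4.0.16 in R 4.3.3 (TMM, filterByExpr by group, quasi-likelihood F test on all 17 tumors), with Benjamini-Hochberg adjustment over 13005 genes. Standard errors were derived from the log2 fold change and F, and intervals are 95%. A two-sided exact permutation test used log2 CPM (prior count 2) over all 24310 splits, whose smallest p is 4.11e-05. Alternatives were upper-quartile and median-ratio factors, DESeq2 1.42.0, limma 3.58.1 voom with quality weights, no filter, a filter at a mean of 10 counts, a replicate block, length offsets (splines with 4 degrees of freedom), leaving out cryoablation tumors 2, 4 and 5, and leaving out each tumor. The scripts were tested on simulated counts. The 40 genes, their 9 roles and the other lists were chosen with earlier results of these data known. Values are given for the gene with the smallest p and the one with the highest level per kilobase in each role, for the 10 smallest p, and for Ifnb1, Ifng, Ifnar1, Ifnar2 and Irf1. Another gene that the rule names is not reported here.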

Additional observations from a re-analysis of the deposited data

Results flagged for a closer look

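Over 80 pairs of a gene and a group, 3 had a tumor set apart from the rest of its group by Dixon's criterion on log2 CPM, and chance gives about 1 in 20. All 3 were control replicate 1 as the lowest control tumor, for GTPase genes. It had 65.7 CPM of Gbp7, 113 CPM of Irgm1 and 94.2 CPM of Iigp1, whereas the control medians were 177, 252 and 438 CPM. The same tumor was the lowest of 17 for 24 of the 40 genes, and the 3 values are not independent of each other.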

How the results depend on the processing

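The count of 0 genes at an adjusted p under 0.05 held under every alternative run, and the median log2 fold change of the 40 genes stayed below 0, from -0.50 to -0.18. The count of genes at an unadjusted p under 0.05, 2 in the reported fit, was 4 under voom, 4 with the replicate block, 1 with length offsets and 0 without cryoablation tumors 2, 4 and 5, and from 0 to 8 with 1 tumor left out. At the study's threshold it was 0 to 2 with 1 tumor left out, the 2 being without cryoablation replicate 3. Over all genes tested, the number at an unadjusted p under 0.05 moved too. It was 639 of 13005 in the reported fit, 1312 under voom, 446 with the replicate block and 707 with length offsets. With no filter it was 992 of 17819, without the 3 tumors 325 of 13250, and with 1 tumor left out from 252 to 1388. The cause of these shifts was not tested.

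Of 360 single-gene values with all tumors or without the 3, 15 changed sign. Isg15 was -0.0199 with upper-quartile factors, -0.0174 with no filter, -0.25 under voom, -0.11 with the block, -0.45 with length offsets and -0.58 without the 3 tumors. Bst2 was -0.0618 under voom, -0.10 with length offsets and -0.27 without the 3 tumors. Ifi35 was -0.0566 under voom and -0.36 without the 3 tumors, and Xaf1 was -0.19 and -0.15. Samd9l was 0.0322 and Dtx3l 0.0022 without the 3 tumors. With 1 tumor left out, Isg15 ranged from -0.17 to 0.15 and Eif2ak2 from -0.18 to 0.0086, and 33 of the 40 genes changed sign in no fit.

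Same-numbered tumors share a number in the labels and nothing else that is stated. The correlation of their deviations from the group means ranged from -0.510 to 0.642 and was over 0.1 in 4 of 8 pairs, and 2 of 8 correlated best with their own number. With the replicate block, Ifit2, Ifit3, Mx1 and Mx2 had an unadjusted p under 0.05, and the median was -0.38. The lowest count of the 40 genes was 56. Ifnb1 and the other type I ligands did not pass the filter on low counts, and at these counts low expression cannot be told apart from none.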
